A study of Mus musculus with 4 samples.

Results

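The respiratory chain genes described here were all rows whose gene symbol begins with Nduf, Uqcr, Atp5 or mt-, or with Cox followed by a digit from 4 to 8, with pseudogenes left out. The rule gave 102 of 31055 features. Of these, 89 rows with 88 symbols were nuclear and 13 were the protein genes of mitochondrial DNA (mt- genes). Assigned by symbol, the nuclear rows held 38 rows of complex I and its Ndufa4 relatives, 8 of complex I assembly factors, 8 of complex III, 18 of complex IV and 17 of complex V, and the mt- genes held 7, 1, 3 and 2 subunits of complexes I, III, IV and V. Among the nuclear rows, 70 reached 50 CPM (UMIs of a gene per 1000000 UMIs of the cells summed), 16 were lower but had a UMI, and 3 had none (Cox7b2, Cox8c and a second identifier of Atp5o).

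The cells were viable cells, sorted by exclusion of DAPI, from dissociated lung tumors of 4 female mice, in which Lenti-Cre had started tumors 16 weeks earlier. The 2 Restored mice were Lkb1XTR/XTR and had Rosa26LSL-tdTomato/FLPo-ERT2, and the 2 Non-Restored mice were Lkb1XTR/XTR with Rosa26LSL-tdTomato alone, so an Lkb1 allele that Cre silences with a gene trap was common to all of them. Lkb1 (Stk11) is a tumor suppressor kinase gene. Every mouse was given tamoxifen for 2 weeks in doses of 4 mg, and only the FLPo-ERT2 recombinase of the Restored mice can use it to switch Lkb1 back on. Droplet 3′ libraries of the 4 mice were deposited as 1 matrix with no map from cells to mice, so it counts as 1 sample, the genotypes were not compared, and no test between groups was possible. A difference between cell types may also come from unequal shares of the 4 mice in them, which cannot be told apart here.

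The respiratory chain passes electrons from NADH and succinate to oxygen, pumps protons across the inner mitochondrial membrane as it does so, and lets ATP synthase (complex V) make ATP from the gradient. Complexes I, III, IV and V are each put together from many nuclear-encoded subunits and a few that mitochondria transcribe and translate themselves, while complex II is wholly nuclear. Several subunits of complex IV exist as a widely used isoform and as an isoform known from heart and skeletal muscle or testis.

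Of the cells, 20299 with at least 200 genes were kept, with a median of 1964 UMIs and 858 genes. A cell was given a type, written here as X-like, when at least 3 of the 8 markers of a list were seen and that list led every other by 2 or more, which placed 14326 cells (70.6%). The remaining 5973 cells were left ungated, and 25 types with at least 20 cells were described. Of the gated cells, 2216 T-like, 88 epithelial-like and 299 endothelial-like cells met no finer gate and are in none of the 25 types. The 17 ciliated-like and 4 pericyte-like cells were too few to describe. Markers that no lineage list used gave 51 pairs of marker and lineage, from 47 genes over 17 lineages. In 51 of the pairs the marker was above its median in the other lineages, and in 50 its lineage ranked among the 3 highest; the exception was Cadm1 in cDC1-like cells. The finer types within T-like, epithelial-like and endothelial-like cells were not checked in this way. Intervals are exact 95% intervals (Poisson for levels, conditional binomial for ratios, Clopper-Pearson for shares) and cover counting error only, not the spread between mice.

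Promoters of 7 nuclear members are shown because they set widely used subunits of complex IV (Cox8a, Cox6a1, Cox6b1, Cox7a2) beside isoforms of restricted level (Cox6b2, Cox7a1) and beside Ndufc2, the complex I member that stood out in ATI-like cells. Each is the RefSeq sequence on GRCm38.p6 (mm10) from 250 bases before to 50 after the gene's start, with motif matches in capitals.
Cox8a, chr19:7217567-7217866, minus strand: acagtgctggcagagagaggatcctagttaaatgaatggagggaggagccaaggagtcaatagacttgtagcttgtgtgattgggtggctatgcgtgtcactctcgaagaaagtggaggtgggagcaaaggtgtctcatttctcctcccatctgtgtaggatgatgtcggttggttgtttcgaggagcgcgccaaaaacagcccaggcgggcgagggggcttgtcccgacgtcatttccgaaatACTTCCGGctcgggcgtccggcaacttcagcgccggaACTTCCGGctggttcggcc
Cox6a1, chr5:115348909-115349208, minus strand: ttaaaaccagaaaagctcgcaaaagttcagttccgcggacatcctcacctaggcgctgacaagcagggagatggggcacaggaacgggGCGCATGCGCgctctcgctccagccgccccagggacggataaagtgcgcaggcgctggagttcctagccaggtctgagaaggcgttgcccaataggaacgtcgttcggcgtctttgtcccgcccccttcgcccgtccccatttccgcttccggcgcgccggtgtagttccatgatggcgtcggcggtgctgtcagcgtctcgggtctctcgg
Cox6b1, chr7:30626065-30626364, minus strand: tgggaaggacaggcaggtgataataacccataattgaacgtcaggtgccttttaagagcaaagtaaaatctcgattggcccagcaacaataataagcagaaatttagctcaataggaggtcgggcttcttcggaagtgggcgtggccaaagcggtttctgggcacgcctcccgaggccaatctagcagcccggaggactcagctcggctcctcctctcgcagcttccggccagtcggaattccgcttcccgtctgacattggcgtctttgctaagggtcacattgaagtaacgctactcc
Cox6b2, chr7:4753045-4753344, minus strand: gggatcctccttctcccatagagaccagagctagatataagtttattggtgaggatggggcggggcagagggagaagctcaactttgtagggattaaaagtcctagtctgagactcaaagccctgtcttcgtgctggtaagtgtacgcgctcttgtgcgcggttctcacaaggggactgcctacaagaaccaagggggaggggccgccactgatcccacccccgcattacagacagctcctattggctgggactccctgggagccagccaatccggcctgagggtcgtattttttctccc
Cox7a2, chr9:79759804-79760103, minus strand: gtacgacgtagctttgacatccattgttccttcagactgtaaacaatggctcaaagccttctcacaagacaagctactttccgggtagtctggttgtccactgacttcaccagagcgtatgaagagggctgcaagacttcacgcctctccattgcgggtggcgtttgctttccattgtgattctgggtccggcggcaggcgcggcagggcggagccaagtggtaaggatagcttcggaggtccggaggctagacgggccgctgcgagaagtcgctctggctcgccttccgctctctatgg
Cox7a1, chr7:30183921-30184220, plus strand: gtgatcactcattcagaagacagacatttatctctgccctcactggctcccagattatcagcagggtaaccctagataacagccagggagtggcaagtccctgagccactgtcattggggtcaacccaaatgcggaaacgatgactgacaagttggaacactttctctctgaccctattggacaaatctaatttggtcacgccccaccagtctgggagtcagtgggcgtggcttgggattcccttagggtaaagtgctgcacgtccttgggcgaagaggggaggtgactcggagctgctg
Ndufc2, chr7:97399753-97400052, plus strand: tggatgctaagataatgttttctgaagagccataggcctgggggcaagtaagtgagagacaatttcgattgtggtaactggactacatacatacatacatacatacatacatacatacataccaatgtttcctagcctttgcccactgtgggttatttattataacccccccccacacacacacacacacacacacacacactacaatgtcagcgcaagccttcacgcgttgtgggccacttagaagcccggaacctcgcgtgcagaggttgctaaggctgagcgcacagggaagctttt

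The capitals in Cox6a1 mark GCATGCGC, the motif of NRF1 (a transcription factor of many respiratory chain promoters), found on both strands so that 2 matches overlap. Those in Cox8a mark 2 separate matches of the motif of GABP and other ETS factors, CCGGAAGT, on the reverse strand as ACTTCCGG. The other 5 windows held neither these letters nor the YY1 motif AAGATGGC on either strand. Of the 88 nuclear symbols, 71 had a promoter, and Cox6a2 and Cox4i1 had none in the table. The NRF1 motif was found for 11 of the 71 (15.5%) against 3.05% of 27025 genes, the YY1 motif for 10 (14.1%) against 3.19%, and the ETS motif for 5 (7.04%) against 4.31%. At least 1 of the 3 motifs was found for 25 members (35.2%), against 9.91% of all genes. The motifs were chosen from general knowledge of promoters of respiratory chain genes. The genes set beside the members were not matched for CpG pairs or level, so these shares are description only. CpG pairs numbered 32 in the Cox6a1 window, 20 in Cox7a2, 19 in Cox8a and 17 in Cox6b1, and 10, 8 and 7 in Cox6b2, Ndufc2 and Cox7a1. A match describes letters in a window and is not evidence of binding.

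Over all kept cells the nuclear set made up 2.30% of UMIs (22959 CPM) and the mt- set 4.94% (49392 CPM). Each UMI counts 1 captured transcript end, so the levels given here are scaled transcript numbers and do not scale with gene length. A small number of nuclear members held much of the nuclear total: the 10 highest took 35.3% of it. They were Atp5e (1178 CPM), Atp5l (887 CPM) and Atp5j2 (609 CPM), small subunits of ATP synthase, Cox8a (1094 CPM), Cox6c (893 CPM), Cox4i1 (825 CPM), Cox7c (773 CPM) and Cox6b1 (603 CPM) of complex IV, Uqcrh (704 CPM), the hinge protein of complex III, and Ndufa4 (532 CPM), named for complex I but now placed with complex IV. Cox4i1 overlaps the model Gm20388 and cannot be fully separated from it.

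Among the 25 types the nuclear total ranged 2.67-fold and the mt- total 4.93-fold. The nuclear total was lowest in neutrophil-like cells (11459 CPM, interval 11314 to 11605), then in basophil or mast-like (14335 CPM), naive CD8 T-like (16467 CPM) and B-like cells (17088 CPM). It was highest in ATI-like cells (30638 CPM, interval 30239 to 31041), type I cells being the thin gas-exchange cells of the alveolus. Treg-like cells (29239 CPM), cells positive for both ATII and ATI markers (27789 CPM) and ATII-like cells (27719 CPM) followed, ATII cells being the surfactant-making cells. All epithelial-like classes came from lung tumors, and tumor cells were not told apart from normal cells in them. Their levels are thus not read as those of normal alveolar cells. The ATI-like class also held Scgb1a1, a club cell gene, at 27657.5 CPM and Sftpc, a surfactant gene, at 29260 CPM. It may thus hold other epithelial cells, and its name rests on the gate alone. With TMM scaling (edgeR), which evens out composition, aerocyte endothelial-like cells were lower than neutrophil-like cells in both totals, and plasma-like cells were the highest in the nuclear total.

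The mt- total had another order. Neutrophil-like cells were lowest (15403 CPM, interval 15235 to 15573) and basophil or mast-like cells next (29605 CPM), while B-like cells were highest (75984 CPM, interval 75678 to 76292), followed by pDC-like (67099 CPM) and interstitial macrophage-like cells (60637 CPM). The ratio of mt- to nuclear UMIs therefore went from 1.34 in neutrophil-like and 1.46 in ATI-like cells to 3.42 in naive CD8 T-like and 4.45 in B-like cells, around a median of 1.91. Between neighbours in the order, intervals overlapped for 15 of 24 pairs in the nuclear total and 12 of 24 in the mt- total. Over the 25 types the Spearman correlation of the 2 totals was 0.32 and fell to 0.23 over 24 types without neutrophil-like cells; all types share 1 pooled matrix and a denominator that holds both sets. The nuclear total had a Spearman correlation of 0.48 with the median UMIs per cell over types, and the mt- total one of 0.11. Among cells of 1000 to 2000 UMIs, which left 16 types, interstitial macrophage-like and not B-like cells had the highest mt- total (106033.5 CPM). That range lies below the median depth of interstitial macrophage-like cells (3747.5 UMIs) and holds that of B-like cells (1378 UMIs). It therefore took only the shallow cells of the interstitial type. Ungated cells had 22996 CPM and 49111 CPM.

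**Figure D1:**
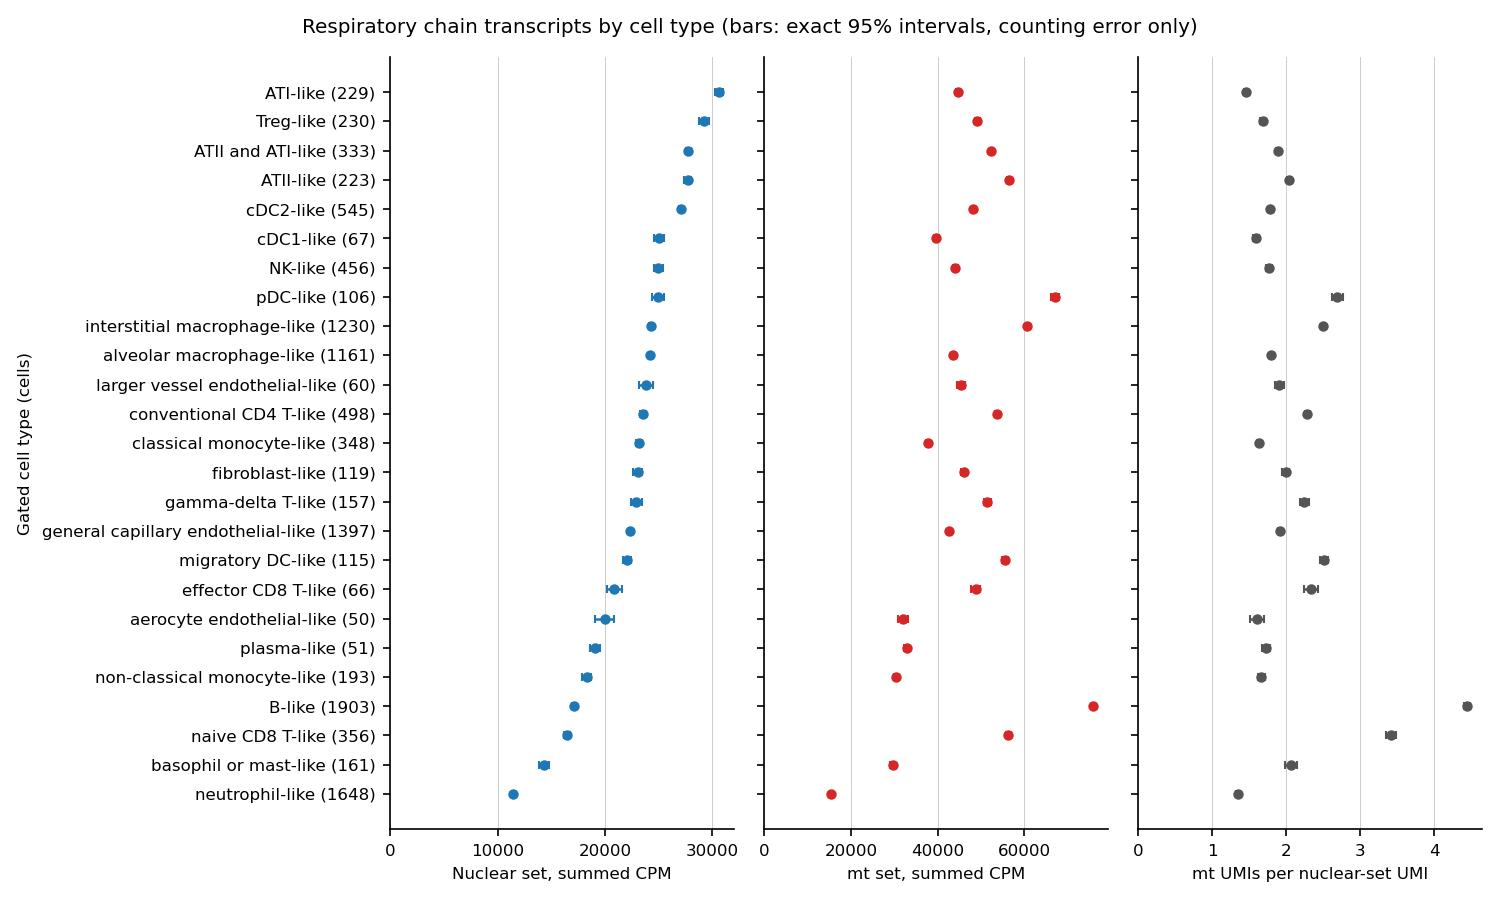
Summed level in CPM of the 89 nuclear rows and of the 13 mt- genes in each of the 25 gated types, and mt- UMIs per nuclear UMI, with exact 95% intervals and the number of cells beside each type. Neutrophil-like cells lie at 11459 and 15403 CPM, below every other type except under TMM scaling, where aerocyte endothelial-like cells are lower; ATI-like cells have the highest nuclear level (plasma-like under TMM) and B-like cells the highest mt- level.

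Nuclear members varied more below their median than above it. For 63 of the 70 at 50 CPM or more, the highest type was at most 2 times the median over types, but the lowest type reached 0.5 times the median for only 21. The highest level was a median of 3.94 times the lowest, from 2.30 times for Ndufa3, an accessory subunit of complex I, to 15.9 times for Ndufc2. In plain CPM, for which alone these ranks were taken, neutrophil-like cells were the lowest type for 35 of the 70 and among the 3 lowest for 63, basophil or mast-like cells were lowest for 12 and plasma-like cells for 11. ATI-like cells were the highest type for 19 and Treg-like cells for 15. The same ranks and spreads were not taken over all genes, so these counts are description only. Some rest on few UMIs, such as Uqcrc2 of complex III, highest in aerocyte endothelial-like cells on 14 UMIs. The part of counting error in small types was not tested. Sums, ratios and counts by complex follow the symbol, here and below, so Ndufa4 counts with complex I and not with complex IV. Complex I ran from 3405 CPM in neutrophil-like to 10497 CPM in ATI-like cells. In the same types complex III ran from 1144 to 3658 CPM and complex IV from 3562 to 8345 CPM. Complex V ran from 3260 CPM in neutrophil-like to 8716 CPM in Treg-like cells.

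Among the most abundant members, the lowest type was not always the neutrophil-like cells. Atp5e, the epsilon subunit of ATP synthase, was lowest in aerocyte endothelial-like cells (583 CPM) and highest in cDC2-like cells (1560 CPM), around a median of 1191 CPM, but its interval in aerocyte endothelial-like cells overlapped that in neutrophil-like cells (642 CPM). Cox8a was lowest in plasma-like cells (649 CPM, interval 566 to 741, against 850 CPM in neutrophil-like cells) and highest in NK-like cells (1725 CPM), with a median of 1025 CPM. Cox4i1, the regulatory subunit of complex IV, was equally low in plasma-like and neutrophil-like cells (419 CPM in both) and highest in alveolar macrophage-like cells (1101 CPM). By contrast, Cox6c had its lowest level in neutrophil-like cells (334 CPM) and its highest in ATI-like cells (1593 CPM), and Ndufa4 likewise (167 and 1161 CPM).

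**Figure D2:**
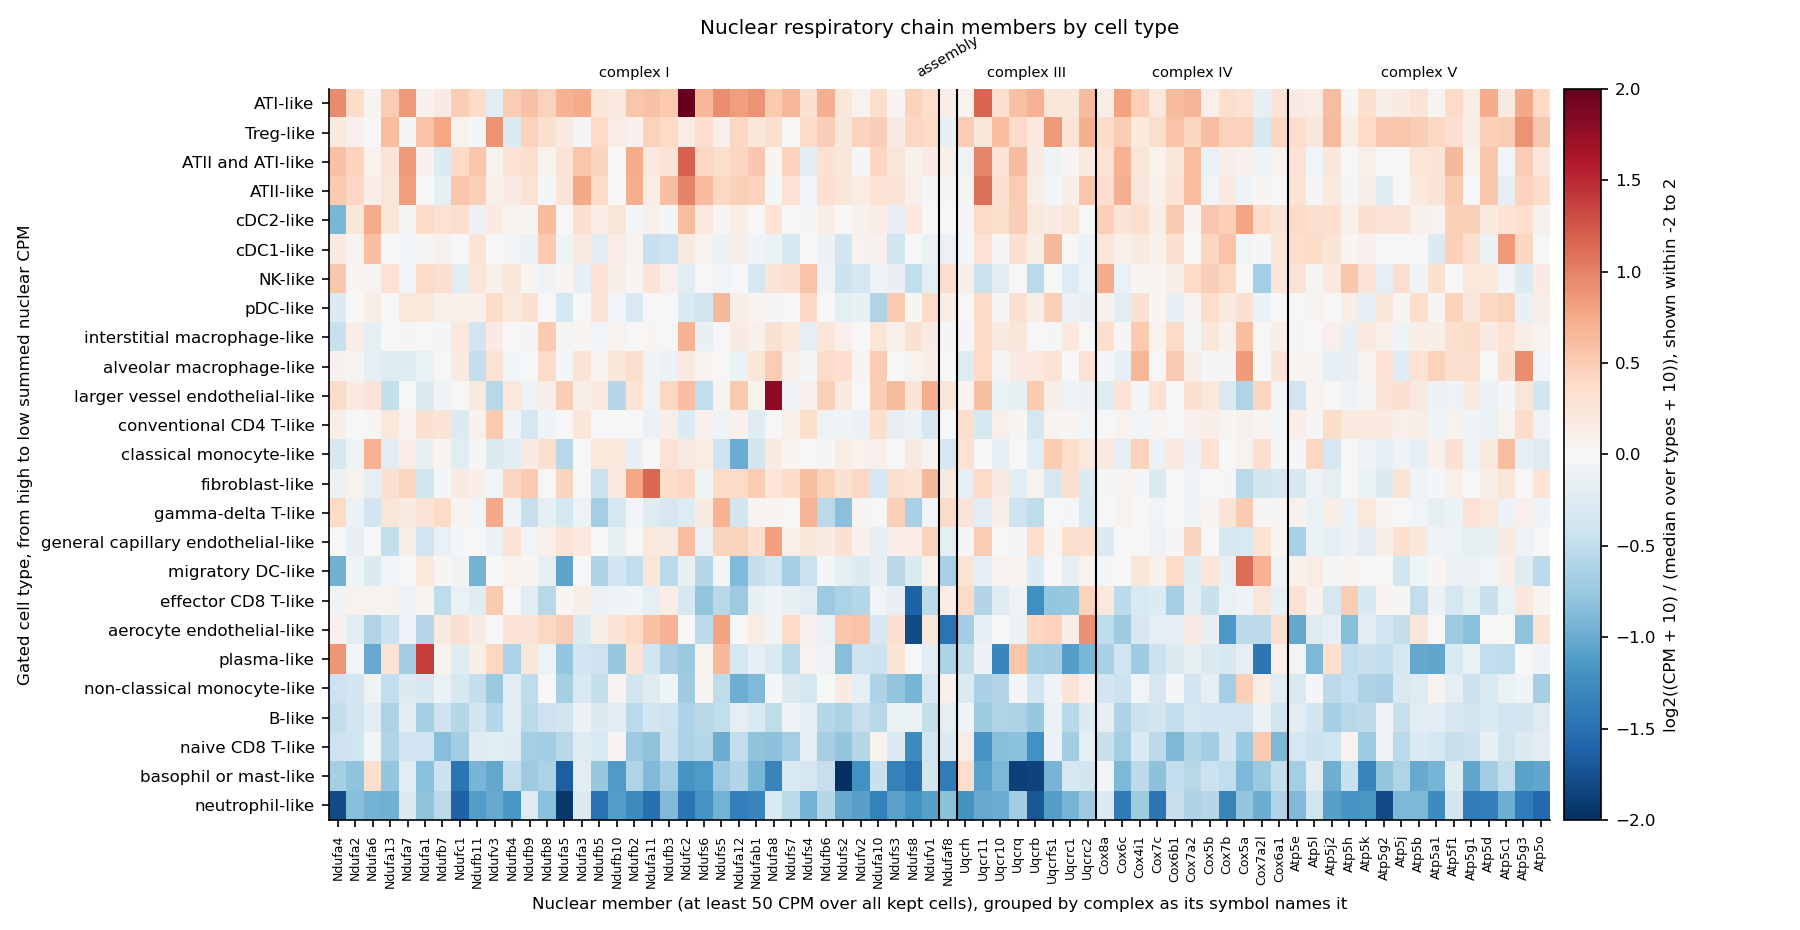
Level of each nuclear member at 50 CPM or more (columns) in the 25 gated types (rows), as log2 of CPM + 10 over the same for its median across types, with complexes set apart by lines. The highest type is at most 2 times the median for 63 of 70 members, while the lowest is under 0.5 times the median for all but 21; in this plain CPM the neutrophil-like row is low for most members and Ndufc2 stands out in ATI-like cells.

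Neutrophil-like cells, known as short-lived granulocytes that lean on glycolysis, were compared with all other gated cells, a choice made with their low levels known. The 1648 cells had 11459 CPM of nuclear members against 23574 CPM in 12678 other cells, a log2 ratio of -1.04 (interval -1.06 to -1.02), or 14.5 against 70.5 UMIs per cell. Of 70 members at 50 CPM or more in either class, 43 (61.4%) were at least 2-fold lower on the log2(CPM + 10) scale, where 27.0% of the 3418 genes that met the same minimum were. None was 2-fold higher (20.9% of all genes), the 70 were all below 0, and their median was -1.08 against -0.17 over all genes. TMM shifted every log2 ratio of this comparison by 0.57, which left 64 of the 70 below 0 and 12 at least 2-fold lower (17.1%). That share was near the 15.1% of all genes past the same mark, so the excess of members at the 2-fold mark was not kept under TMM. Without the genes outside the mt- set that took over 1% of UMIs in a type, 30 members (42.9%) were 2-fold lower. Of all genes 23.9% were. The mt- genes past that share, such as mt-Co3 in B-like cells (17618 CPM), were kept.

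The lower level held for each complex: -1.09 for complex I (interval -1.13 to -1.06; 22 of 35 members 2-fold lower), -1.21 for complex III (interval -1.27 to -1.15; 5 of 8), -0.92 for complex IV (interval -0.96 to -0.89; 5 of 11) and -1.04 for complex V (interval -1.08 to -1.01; 11 of 15). These counts by complex are in plain CPM, where 27.0% of all 3418 genes were 2-fold lower. Under TMM 12 of all 70 members were, near the 15.1% of all genes. On the ranking scale the 5 members furthest down were Ndufa5 and Ndufc2 of complex I, Atp5g2 and Atp5g3, which encode the same c-ring protein of ATP synthase, and Ndufa4. Ndufa5 was at 46.0 CPM against 205 CPM (log2 ratio -2.16, interval -2.46 to -1.87) and Atp5g2 at 112 CPM against 440 CPM (-1.97, interval -2.16 to -1.78). The 5 that were closest to the other cells were Ndufb9 (172 against 206 CPM; -0.26, interval -0.41 to -0.11), Cox8a (850 against 1087 CPM; -0.35), Ndufa7 (-0.36), Atp5l (-0.38) and Ndufa3 (-0.51). Those 5 values become positive under TMM.

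The mt- genes differed more than the nuclear ones. Their total was 15403 CPM against 51402 CPM (log2 ratio -1.74, interval -1.75 to -1.72), 19.5 against 154 UMIs per cell, and each of the 12 that reached 50 CPM was at least 2-fold lower; under TMM the total was at -1.17 and 11 of the 12 were. The median neutrophil-like cell gave 0.464% of its UMIs to the mt- genes (quartiles 0.224% and 0.902%), while the median B-like cell gave 7.28%. The shallow depth of the neutrophil-like cells (a median of 904.5 against 2126.5 UMIs) moved with this result. In cells with at least 500 genes the mt- ratio was -1.34, and in cells of 1000 to 2000 UMIs only it was -2.58, with the nuclear ratio at -0.87 and -1.04. Sftpc, a surfactant gene that these cells should lack, was taken as a gauge of free RNA. It stood at 330 CPM in neutrophil-like cells, against 115039 CPM in ATII-like cells. That was the highest level among the types outside the epithelium, with 226 CPM in interstitial macrophage-like and 105 CPM in B-like cells. The part of free RNA in the result was not tested.

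Genes around the chain followed in part. Of 4 electron carrier genes that met the minimum, 4 were 2-fold lower, cytochrome c (Cycs) at 60.3 against 131 CPM (log2 ratio -1.12) and Etfa, an electron transfer flavoprotein subunit, at 16.8 against 66.2 CPM (-1.98). Both of the mitochondrial DNA expression genes measured well enough were 2-fold lower, Ssbp1, the single-strand binding protein (-1.38), and Slirp, an mRNA stabilizer (-1.83). Of 8 carriers and channels 3 were 2-fold lower, among them Slc25a4, the ADP/ATP carrier (26.3 against 180 CPM; -2.78), while Ucp2 was at 413 against 451 CPM (-0.13). Of 10 assembly genes 3 were 2-fold lower, whereas the copper chaperone Cox17 was at 339 against 246 CPM (0.46, interval 0.35 to 0.57). Among 7 TCA cycle genes Suclg1 was the 1 past 2-fold (-1.57) and Dlst was at 0.67, none of 3 complex II genes was past it, and Yy1, the 1 biogenesis regulator measured, was at 0.38. Under TMM Ucp2 is above 0 too. Over all 3418 genes 27.0% were 2-fold lower in plain CPM, so 3 of 8 and 3 of 10 were not far from that share. These counts were not taken under TMM, which shifted every ratio of this comparison by 0.57. A shift of that size brings Cycs and Ssbp1 inside the 2-fold mark.

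**Figure D3:**
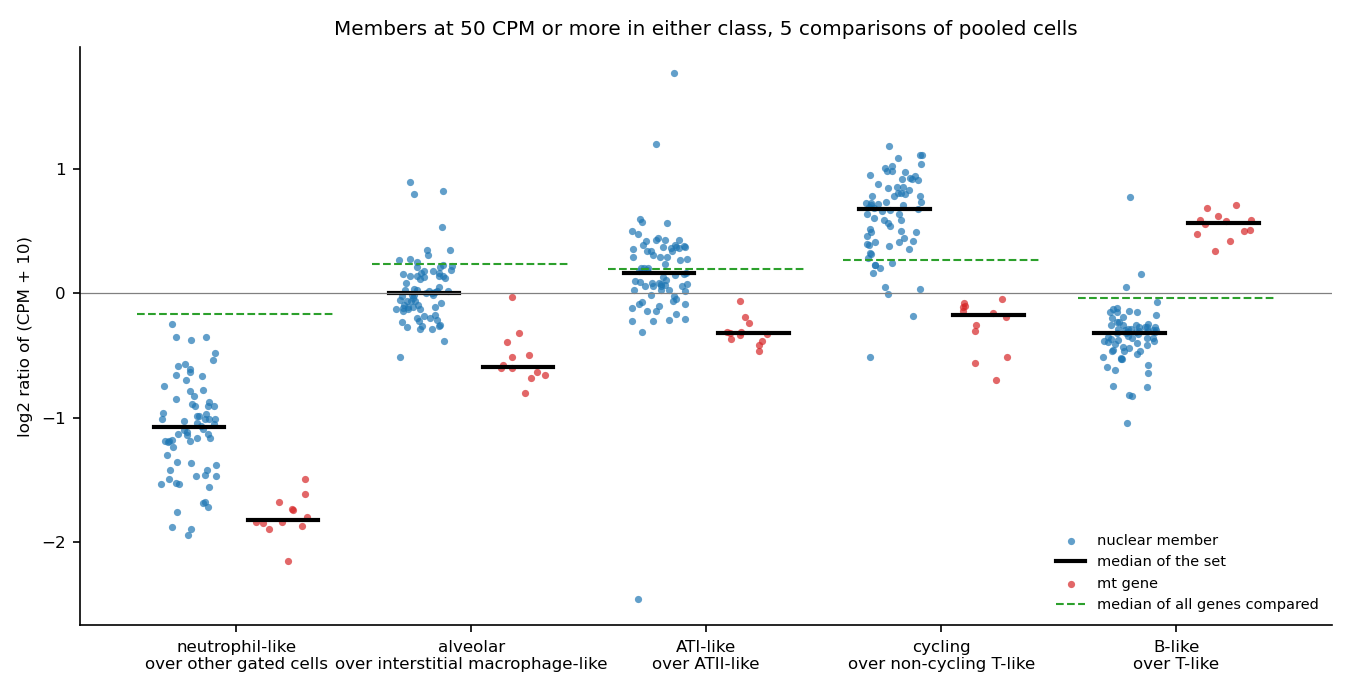
Log2 ratio on the CPM + 10 scale of each nuclear member and mt- gene in each comparison, beside the median of all genes tested. In neutrophil-like cells the 70 nuclear members lie below 0 (64 of 70 under TMM), whereas alveolar over interstitial macrophage-like cells have 37 above and 36 below (9 and 64 under TMM).

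B-like cells had the opposite balance to neutrophil-like cells, few nuclear and many mt- transcripts, and were set beside T-like cells, a comparison chosen after seeing the data. Nuclear members were at 17088 CPM in 1903 B-like cells against 22345 CPM in 3523 T-like cells, a log2 ratio of -0.39 (interval -0.40 to -0.37), and 67 of 70 were below 0. One of the 70 was 2-fold lower (1.43%, where 10.3% of 2655 genes were), and none was 2-fold higher (9.94% of genes), with a median of -0.32 against -0.04 over all genes. That 1 member was Ndufv3, an accessory subunit of complex I, at 140 against 298 CPM (-1.09, interval -1.25 to -0.94). The mt- total was at 75984 against 54223 CPM (0.49, interval 0.48 to 0.49), and 12 of 12 mt- genes were above 0. Depths were 1378 and 1686 UMIs in the median cell, and TMM changed these ratios by 0.02. At 1.5-fold 8 members were lower (11.4%) and 1 higher (1.43%), where 17.1% and 16.3% of all genes were.

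Of the other nuclear members, Ndufa1 (-0.86), Atp5j2 (-0.83), Atp5h (-0.77) and Ndufa13 (-0.77) lay lowest after Ndufv3. Ndufaf4, an assembly factor of complex I, was the highest at 64.6 against 33.5 CPM (0.95, interval 0.67 to 1.23). Tfam, which packages and helps transcribe mitochondrial DNA, was at 108 against 44.1 CPM (1.29, interval 1.06 to 1.51) and was the only gene of the 7 pathway lists past 2-fold in either direction. Of 10 assembly genes and 8 carriers none was above 0, with Cox20 (-0.68) and Ucp2 (-0.50) lowest.

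Cycling T-like cells, those with at least 4 of 8 cell-cycle markers, had the nuclear members higher and the mt- genes lower. In 95 cycling against 3428 other T-like cells, nuclear members were at 33433 against 21333 CPM (log2 ratio 0.65, interval 0.63 to 0.67) and mt- genes at 47937 against 54796 CPM (-0.19, interval -0.21 to -0.18). Of 72 members 69 were above 0 (66 under TMM, which shifted the ratios by -0.21), with a median of 0.68 against 0.27 over all genes. At the 2-fold mark there were 7 higher (9.72%), a share below the 13.3% of all 2811 genes, and none under TMM, where 10.0% of genes were. Without the genes outside the mt- set that took over 1% of UMIs in a type there were 4 (5.56%, against 11.9% of genes). At 1.5-fold 44 were higher (61.1%), where 30.8% of all genes were, so the members lay below the background at the first mark and above it at the second. None was 2-fold lower, as were 3.42% of genes. Cycling cells were deeper, with a median of 5815 against 1662 UMIs, and too few of them lay between 1000 and 2000 UMIs to compare at like depth, so the part of depth in this result was not tested. The T-like subsets were pooled, and their nuclear totals ranged from 16467 CPM in naive CD8 T-like to 29239 CPM in Treg-like cells. The subset make-up of the cycling cells was not taken, so its part was not tested either.

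By complex, the ratio was 0.56 for complex I, 0.64 for complex III, 0.72 for complex IV and 0.68 for complex V. On the ranking scale Atp5g3 was highest (418 against 178 CPM, log2 ratio 1.23, interval 1.03 to 1.44). It was followed by Uqcr10 of complex III (1.13), Ndufv1, the NADH-binding subunit of complex I (1.29 on 57 UMIs), Atp5j (1.11) and Cox7a2 (1.05). The printed ratios have no pseudocount, so the value of Ndufv1 is above that of Atp5g3 although it ranked lower. Cox7a2l, a factor in joining complexes III and IV into supercomplexes, went the other way at 244 against 352 CPM (-0.53, interval -0.79 to -0.29). Ndufa6 (-0.19), Ndufb4 (205 against 206 CPM), Ndufa7 (0.04) and Uqcrh (0.05) were the next lowest, and each interval held 0. Among the pathway genes 1 of 9 TCA cycle genes was past 2-fold, fumarase Fh1 (80.1 against 22.7 CPM; 1.82), and 2 of 8 carrier genes, with Atpif1, the ATP synthase inhibitor, at 514 against 169 CPM (1.60). In plain CPM, cycling cells of the macrophage types had ratios of the same sign. The nuclear ratio was 0.36 in 48 alveolar and 0.33 in 20 interstitial macrophage-like cells, and the mt- ratio -0.07 and -0.17. Median depths of cycling and other cells were 6113 and 5673 UMIs in the alveolar type, and 6949 and 3730.5 UMIs in the interstitial type. The median over all genes and the TMM ratio were not taken for these, so no excess over other genes is read. Epithelial-like and B-like cells had 4 cycling cells each and were not compared.

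Alveolar and interstitial macrophage-like cells, the airspace and tissue macrophages of the lung, had nearly equal nuclear totals (a ratio of 0.998) but different mt- totals. Nuclear members were at 24210 CPM in 1161 alveolar against 24256 CPM in 1230 interstitial macrophage-like cells (log2 ratio interval -0.01 to 0.01). None of 73 was 2-fold higher, as were 14.8% of 3229 genes, and none 2-fold lower, as were 8.14%. At 1.5-fold 3 were higher (4.11%), where 29.3% of all genes were. Members split into 37 above and 36 below 0 and had a median of 0.00, under the 0.24 of all genes; with TMM, which shifted ratios by -0.27, they split into 9 and 64. In cells of 1000 to 2000 UMIs, an alternative that kept 24 and 59 cells, the ratio was 0.61, so the equality did not hold at that depth.

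Highest on the alveolar side were Cox6b2 (58.9 against 26.9 CPM; 1.13, interval 0.84 to 1.42), Ndufs1, the large iron-sulfur subunit of complex I (1.04), Atp5g3 (0.83), Ndufa4 (0.55) and Atp5a1, the alpha subunit of ATP synthase (0.36). Lowest were Ndufc2 (138 against 201 CPM; -0.54), Cox8a (993 against 1296 CPM; -0.38), Ndufa12 (-0.31), Ndufa9 (-0.33) and Atp5j2 (-0.29). The mt- total was at 43578 against 60637 CPM (-0.48, interval -0.48 to -0.47), and 12 of 12 mt- genes were below 0, but unevenly: mt-Co1, the catalytic subunit of complex IV, was at -0.03 while the others ranged from -0.32 to -0.81. No gene of the pathway lists was past 2-fold on the ranking scale. The furthest were Ogdh of the TCA cycle (98.8 against 49.7 CPM; 0.99), Coa5, an assembly factor (1.01), Etfb (0.97) and Slc25a5, an ADP/ATP carrier (0.91), with Fh1 (-0.99) and Atpif1 (-0.74) on the interstitial side.

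ATI-like cells exceeded ATII-like cells slightly in the nuclear members and fell short in the mt- genes. Nuclear members were at 30638 CPM in 229 ATI-like against 27719 CPM in 223 ATII-like cells (0.14, interval 0.12 to 0.17; 0.03 under TMM), with 56 of 74 above 0 (42 under TMM) and a median of 0.16 against 0.20 over all genes. Of the 74 members 2 were 2-fold higher (2.70%, where 9.56% of 2856 genes were) and 1 was 2-fold lower (1.35%, where 7.46% were). The 2 were Cox6b2 (50.4 against 7.69 CPM; 2.71, interval 1.59 to 4.03) and Ndufc2 (586 against 249 CPM; 1.24, interval 1.01 to 1.46), and the 1 was Cox6a2 (38.2 against 255 CPM; -2.74, interval -3.36 to -2.17). Ndufaf2 (0.76), Uqcrb (0.59) and Ndufa8 (0.61) came next on the ATI side, and Ndufv3 (-0.32), Ndufs3 (-0.25), Cox8a (-0.22) and Atp5a1 (-0.22) on the ATII side. The mt- total was at 44731 against 56533 CPM (-0.34, interval -0.36 to -0.32). None of the pathway genes was past 2-fold, and Sdha of complex II was at -0.87. Genes outside the chain moved with this comparison. Scgb1a1, the secretoglobin of club cells, took 2.77% of the UMIs of ATI-like cells and was at 5401 CPM in ATII-like cells. Malat1, a nuclear long RNA, took 8.15% of UMIs in ATI-like cells and was at 32927 CPM in ATII-like cells, while Sftpc was at 29260 against 115039 CPM. Of the 8 ciliated cell markers 3 were seen in the ATI-like class (139 UMIs, 189 CPM) and 5 in the ATII-like class (26 UMIs). In the double-positive class Scgb1a1 was at 24.2 CPM. The ATI-like class may thus hold cells other than type I cells. Scgb1a1 and Malat1 were chosen after their values were seen, and the part of these genes in the result was not tested. Median depths were 2584 and 4467 UMIs, and too few cells of these types lay between 1000 and 2000 UMIs to compare.

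Under the rule that the highest type be at least 4 times the median over types on at least 10 UMIs, 4 nuclear members were restricted: Cox6a2, Ndufc2, Cox6b2 and Cox7a1. The value of Ndufc2 was 4.85 times the median and that of Cox7a1 5.26 times, just inside, and Ndufa8 at 3.69 times, highest in larger vessel endothelial-like cells (393 CPM), lay just outside. These values chose the members and are description only. The share of all genes that pass this rule was not computed, so the count of 4 is not read as many or few.

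Cox6a2 (ENSMUSG00000030785, mm10 chr7:128205435-128206387, minus strand), the heart and muscle form of complex IV subunit 6a, was the most confined. It stood at 1069 CPM in pDC-like cells (interval 957 to 1190, 331 UMIs), at 307 CPM in cells positive for both ATII and ATI markers (737 UMIs), at 255 CPM in ATII-like cells (265 UMIs) and at 38.2 CPM in ATI-like cells (28 UMIs). Non-classical monocyte-like cells had 70.0 CPM, but from 3 cells, and 13 of the 25 types had no UMI. After thinning each cell to 1000 UMIs, 48.5% of pDC-like cells held a Cox6a2 UMI (50 of 103, interval 38.6% to 58.6%; 64.2% unthinned), 14.1% of the double-positive cells and 29 of 223 ATII-like cells (interval 8.89% to 18.1%). In B-like cells the thinned share was 0.188% (interval 0.039% to 0.547%), and in Treg-like cells it was 0 of 202 cells, for which the upper Clopper-Pearson bound is 1.81%. Median depths were 2777 UMIs in pDC-like and 1378 UMIs in B-like cells.

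Beside its partner, Cox6a2 took 77.5% of the Cox6a1 and Cox6a2 UMIs in pDC-like cells (interval 73.3% to 81.4%), 45.0% in ATII-like cells, 48.5% in double-positive cells and 8.69% in all cells. Cox6a1 itself, whose promoter is printed above, was at 310 CPM in pDC-like and 311 CPM in ATII-like cells, near its median of 311 CPM over types. Cox6a2 lies within Itgad on the other strand, and Itgad had 42 UMIs in all, 4 of them in pDC-like cells and none in ATI-like, ATII-like or double-positive cells.

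Ndufc2 (ENSMUSG00000030647, mm10 chr7:97400003-97407802, plus strand), a small membrane subunit of complex I, was seen in all 25 types, from 36.9 CPM in neutrophil-like to 586 CPM in ATI-like cells (interval 532 to 644). Thinned shares were 42.3% of ATI-like cells (94 of 222), 24.9% of double-positive cells (83 of 333), 23.3% of ATII-like cells (52 of 223), 12 of 60 larger vessel endothelial-like cells, 17.7% of general capillary endothelial-like, 17.3% of interstitial macrophage-like and 2.62% of neutrophil-like cells. The annotated model Gm16053 overlaps it on the same strand, and reads of the 2 cannot be told apart.

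Cox6b2 (ENSMUSG00000051811, mm10 chr7:4751792-4753094, minus strand), the testis form of subunit 6b, had 1567 UMIs. It was at 58.9 CPM in alveolar macrophage-like, 50.4 CPM in ATI-like, 44.8 CPM in cDC2-like, 35.8 CPM in classical monocyte-like and 26.9 CPM in interstitial macrophage-like cells, against a median of 6.22 CPM over types. A thinned 5.57% of alveolar macrophage-like and 4.50% of ATI-like cells held a UMI, and those intervals overlapped. Cox6b2 never passed 7.22% of the Cox6b1 and Cox6b2 UMIs. Cox7a1 (mm10 chr7:30184144-30186078, plus strand), the heart and muscle form of subunit 7a, was at 14.3 CPM in alveolar macrophage-like cells (98 UMIs) and 12.3 CPM in ATI-like cells (9 UMIs). Its thinned share was 0.697% in the former and 1.80% in the latter, opposite to its CPM, so no order is read from it.

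**Figure D4:**
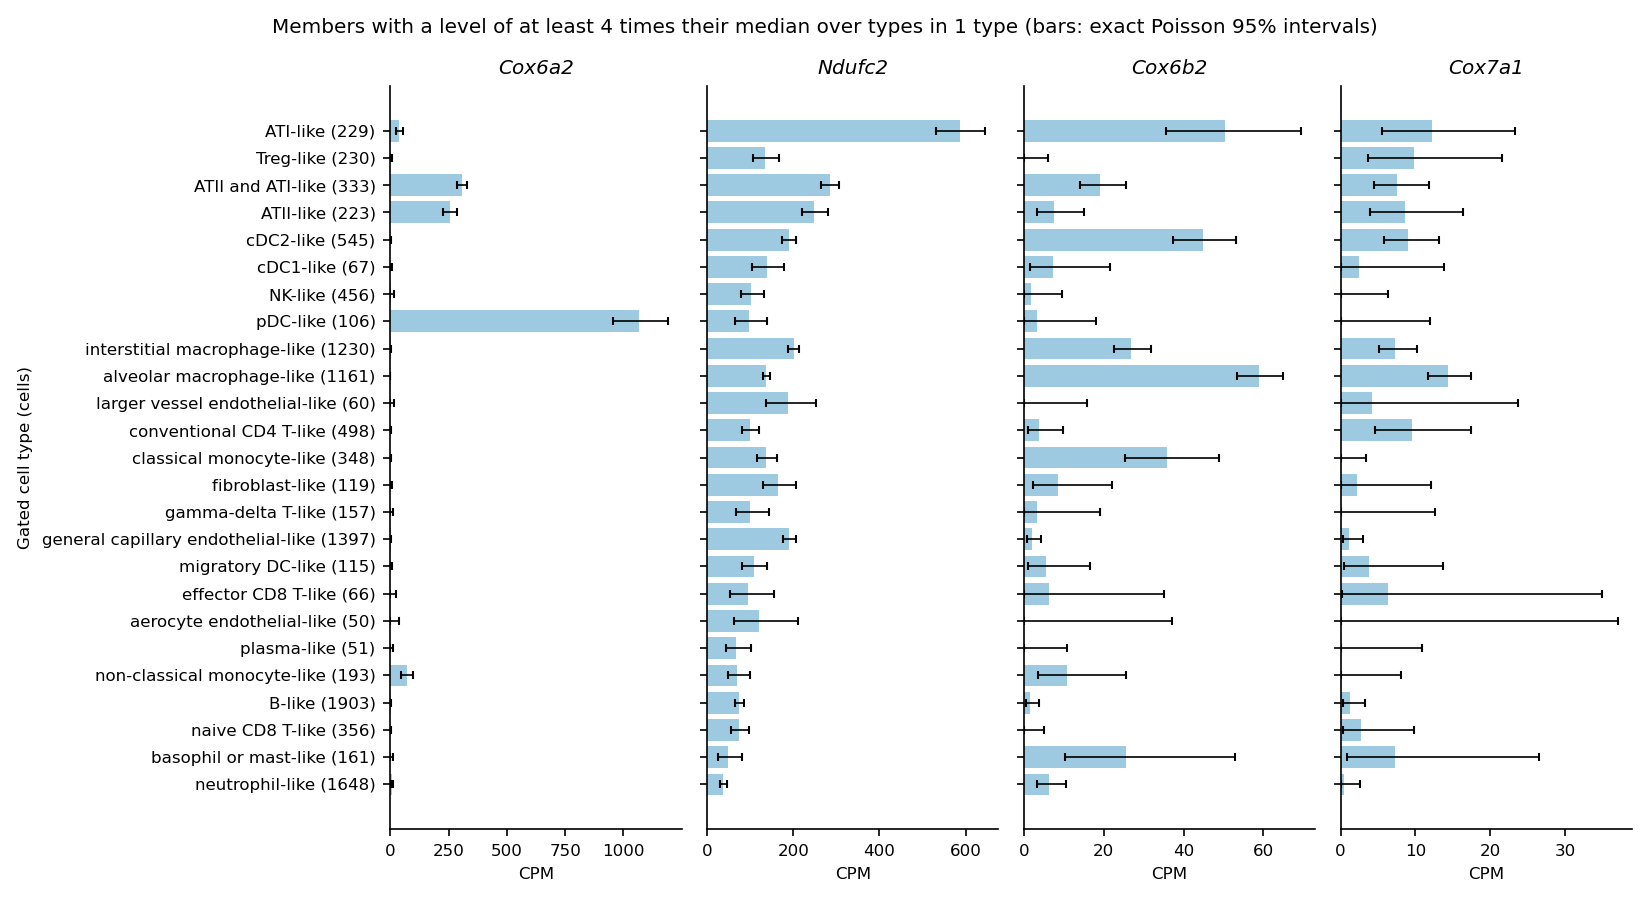
Level in CPM of the 4 restricted members in the 25 gated types, with exact 95% Poisson intervals. Cox6a2 reaches 1069 CPM in pDC-like cells, 307 CPM in double-positive and 255 CPM in ATII-like cells, while Ndufc2 is seen in every type and peaks in ATI-like cells at 586 CPM.

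Other isoform groups mostly kept 1 dominant member. Cox4i1 made 99.7% of the Cox4i1 and Cox4i2 UMIs, Cox8a nearly all of its group (Cox8b had 2 UMIs and Cox8c none), Cox7b all of its pair, and Ndufa4 99.8% of the Ndufa4 and Ndufa4l2 UMIs. Cox4i2, the form known for hypoxia, had 148 UMIs, of which 33 lay in 10 general capillary endothelial-like cells and 32 in the 4 pericyte-like cells, a type too small to describe. Ndufa4l2 had 60 UMIs, of which 8 lay in those 4 cells. The group of Cox7a2, Cox7a1 and Cox7a2l was divided: Cox7a2l took 57.8% in naive CD8 T-like cells (interval 53.6% to 61.9%) and 19.4% in plasma-like cells (interval 13.9% to 25.8%). Atp5g1, Atp5g2 and Atp5g3, which yield 1 mature protein, shared 30.6%, 47.2% and 22.1%, and the share of Atp5g3 went from 15.8% in pDC-like to 28.0% in ATI-like cells.

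Among the mt- genes, the mix of transcripts also differed between types. Over all cells mt-Co3 made 21.8% of mt- UMIs, mt-Co1 17.4%, mt-Atp6 17.0% and mt-Co2 14.4%, so that the subunits of complex IV and of ATP synthase led. Next were mt-Cytb of complex III with 6.84%, mt-Nd1 with 5.58%, mt-Nd4 with 5.09% and mt-Nd2 with 4.57%, and mt-Atp8, mt-Nd4l, mt-Nd5 and mt-Nd3 had 2.86%, 1.67%, 1.39% and 1.24%. mt-Nd6, the only one transcribed from the other strand, had 0.0548% (1585 UMIs). mt-Atp8 and mt-Atp6, and mt-Nd4l and mt-Nd4, overlap and share a transcript, so their split depends on the counting.

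In plain CPM, neutrophil-like cells were lowest for 13 of 13 mt- genes and B-like cells highest for 11, the exceptions being mt-Co1 (pDC-like) and mt-Nd6 (migratory DC-like). For mt-Co3 the lowest was 3351 CPM, the median 9824 CPM and the highest 17618 CPM. As a share of mt- UMIs, mt-Co1 was 21.9% in alveolar macrophage-like (interval 21.7% to 22.0%) and 13.6% in B-like cells (interval 13.5% to 13.8%). The share of mt-Nd2 went from 2.46% in cDC1-like to 5.97% in effector CD8 T-like cells, and that of mt-Cytb from 5.19% in basophil or mast-like to 9.85% in fibroblast-like cells. The share of mt-Atp8 was 2.10% in alveolar macrophage-like and 4.34% in NK-like cells. These shares do not depend on the scaling, since both parts of each come from the same cells.

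**Figure D5:**
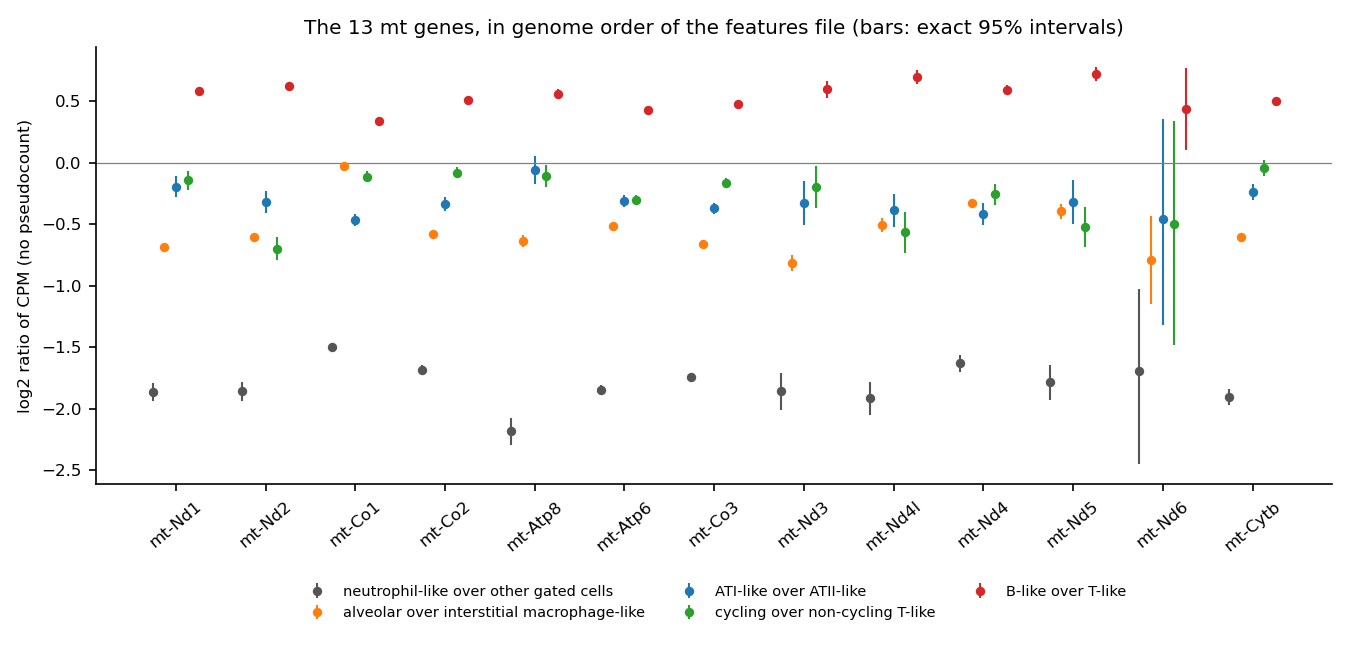
Log2 ratio of CPM for each of the 13 mt- genes in the 5 comparisons, with exact 95% intervals. Points for neutrophil-like cells lie far below 0 and those for B-like over T-like cells above it for the 12 genes at 50 CPM or more, and mt-Co1 lies near 0 (-0.03) for alveolar over interstitial macrophage-like cells, where the totals differ by -0.48.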

How the data were processed

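Droplet 3′ libraries (10x) of viable lung tumor cells from 2 Restored and 2 Non-Restored mice were processed by the authors with Cell Ranger 3.0.2 on mm10, per the submitters' processing notes, and deposited as 1 matrix of raw UMI counts (20351 cells, 31055 features, 58624795 UMIs). Cells cannot be traced to mice in the files used, so depth per mouse is not given and no test was run between groups. Cells with under 200 genes (52) were left out, with no upper limit on genes or mt- share. Each cell was typed from 19 lists of 8 markers, with at least 3 markers seen and a lead of 2. No doublet caller was run, so doublets may remain. Of the gated cells 2482 had exactly 3 markers, 3387 a lead of exactly 2 and 1337 at least 3 markers of a second list. Of the ungated cells 1672 had at least 3 markers of 2 lists. T-like, epithelial-like and endothelial-like cells were split by further markers, and cycling cells needed 4 of 8 cycle markers. One further allele that all mice carried and 1 pathway gene are not reported here. The members, gene lists and comparisons were chosen with earlier results of these data known.

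UMIs were summed per type and scaled to CPM. Ratios have exact conditional 95% intervals. A gene counted as past 2-fold when its log2 ratio of CPM + 10 was at least 1 or at most -1, among genes at 50 CPM in either class, and medians use that scale; ratios printed with levels have no pseudocount. For shares, cells were thinned to 1000 UMIs and shallower cells left out. Named were the 13 mt- genes, the 10 highest nuclear members, in each comparison the 5 nuclear members furthest in each direction, the isoform groups, restricted members, and per pathway list (complex II, electron carriers, assembly and copper, mitochondrial DNA expression, biogenesis regulators, TCA cycle, carriers) counts and the furthest genes. Genes were placed on mm10 with GENCODE vM21, and promoters came from RefSeq (GRCm38.p6). Ratios were tested on simulated data. Alternatives covered cell limits, gate, denominator, weighting, TMM, fold, floor and thinning. Python 3.11.15, numpy 2.4.6, scipy 1.17.1, pandas 2.3.3, matplotlib 3.10.9, R 4.3.3 and edgeR 4.0.16 (TMM factors only) were used.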

Additional observations from a re-analysis of the deposited data

How the results depend on the processing

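The values rest on 1 pooled matrix, so they carry counting error only; no spread between mice, no cohort comparison and no left-out replicate could be had. No paired analysis was possible because none of the files used ties a cell to a mouse. The log2 ratios are given as nuclear then mt-, each in the order neutrophil-like over other cells, alveolar over interstitial macrophage-like, ATI-like over ATII-like, cycling over other T-like and B-like over T-like. None of the ratios whose interval in the main setting left out 0 reversed. The macrophage nuclear ratio, whose interval held 0, was above 0 in some settings and below 0 in others. Of the 76 ratios, 57 moved by more than their counting interval and 19 did not. With upper limits at the 98th percentile of genes and mt- share, the neutrophil-like ratios were -1.09 and -1.93, the macrophage mt- ratio -0.46 and the cycling nuclear ratio 0.68. With at least 500 genes, neutrophil-like ratios were -0.87 and -1.34, the macrophage mt- ratio -0.47 and the B-like mt- ratio 0.50. With a stricter gate (4 markers, lead of 3) the ratios were -1.19 and -1.98, 0.0454 and -0.48, 0.20 and -0.32, 0.60 and -0.22, and -0.47 and 0.53. With CPM over UMIs outside the mt- genes they were -1.09 and -1.79, -0.0287 and -0.50, 0.13 and -0.36, 0.64 and -0.20, and -0.35 and 0.52. Without genes outside the mt- set at over 1% of UMIs in a type they were -0.87 and -1.56, -0.0268 and -0.50, 0.0783 and -0.40, 0.57 and -0.27, and -0.36 and 0.51. As the mean of per-cell CPM they were -1.12 and -2.42, 0.0631 and -0.51, 0.20 and -0.37, 0.70 and -0.16, and -0.32 and 0.46. With TMM they were -0.47 and -1.17, -0.27 and -0.75, 0.0344 and -0.45, 0.44 and -0.40, and -0.36 and 0.51. In cells of 1000 to 2000 UMIs, a setting that like the B-like comparison was chosen after seeing the data, they were -1.04 and -2.58, 0.61 and -0.43, and, for B-like cells, -0.26 and 0.44; ATI-like and cycling cells were too few. The cause of these moves was not tested. Without the genes outside the mt- set at over 1% of UMIs, 30 in place of 43 neutrophil-like members were 2-fold lower (23.9% of all genes were). In that setting 4 in place of 7 cycling members were 2-fold higher (11.9%). With TMM these counts were 12 and 0, where 15.1% and 10.0% of all genes passed the mark. At 1.5-fold, 44 in place of 7 cycling members (30.8% of all genes) and 3 in place of 0 alveolar macrophage-like members (29.3%) were higher, and 8 in place of 1 B-like members lower (17.1%) and 1 in place of 0 higher (16.3%). Over the fold and the minimum level alone (1.5-fold, 20 CPM, no minimum), 26 of 30 alternative member counts were within 1.5 times, of 382 levels per type 124 stayed within their interval, and of 8 thinned shares 1 did.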
